A study of Mus musculus with 8 samples.

Results

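Cluster 2 is a population of deep-layer cortical neurons, here the nuclei that carry the number 2 in the cluster column of the deposited nuclei tables. It held 11679 of 67319 nuclei from 8 samples. The tissue was E15.5 dorsal telencephalon, from which the cerebral cortex develops, of C57BL/6J mice. Of these, 4 were wildtype and 4 were Pantr2 knockout (Pantr2-/-), Pantr2 being a long noncoding RNA gene. Frozen tissue gave nuclei whose transcripts were counted in droplets by unique molecular identifiers (UMIs), so that 1 UMI stands for 1 captured molecule. Counts of Pantr2 were not analysed here, so the genotype rests on the labels alone. The labels name no embryo, litter or pool for a sample, so p-values measure only the spread between these 8 samples.

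Subcerebral projection neurons are deep-layer excitatory neurons that send axons to the brainstem and spinal cord. They are specified by the transcription factors Fezf2 and Bcl11b, while Tbr1 specifies corticothalamic neurons, and Cux1 and Cux2 mark upper-layer neurons, many of which project to the other hemisphere. At this stage these programmes still overlap in newly placed neurons, and some of their factors restrain one another.

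The wildtype samples 1 to 4 held 1668, 1281, 1427 and 1349 nuclei of cluster 2, and the knockout samples 1 to 4 held 1258, 1647, 1500 and 1549. Their summed depth was between 3228534 and 5336894 UMIs per sample. The median depth per nucleus was between 2800.5 and 3053 UMIs in wildtype and between 2334.5 and 2970 in knockout, with the lowest medians in knockout samples 1 and 4. Mitochondrial genes took 1.57% to 2.26% of the UMIs. Of 11662 distinct barcodes in cluster 2, 17 occurred in more than 1 library. The median deposited doublet score of cluster 2 nuclei was 0.0699 in wildtype sample 1 and 0.0680 in knockout sample 1, against 0.136 to 0.175 in the other 6 samples. Shares of nuclei in cluster 2 were not compared between genotypes, since 3 of the 5 marker genes given for it, Bcl11b, Sox5 and Kcnq5, themselves differed between genotypes.

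In wildtype, 4 of the 5 marker genes given for this population, Bcl11b, Fezf2, Ldb2 and Kcnq5, had their highest mean level in cluster 2 among the 7 clusters. These levels are CPM, the UMIs of a gene in 1 cluster of 1 sample scaled to a common total, given as mean ± SD over 4 samples. They describe the cluster and were not tested, because the clustering used the same genes. Kcnq5, a voltage-gated potassium channel subunit, stood at 2577 ± 342 CPM in cluster 2 and 5.99 times the next cluster, cluster 6. Ldb2, a LIM-domain binding cofactor, stood at 1510 ± 77.8 CPM and 2.82 times cluster 3. Fezf2 stood at 136 ± 23.8 CPM and 1.49 times cluster 7. Bcl11b stood at 960.2 ± 153 CPM in cluster 2 and 901.3 ± 30.7 CPM in cluster 3, a ratio of 1.07 that is smaller than the spread between samples. Sox5, a transcription factor of deep-layer neurons, stood at 4653 ± 423 CPM in cluster 2 and was highest in cluster 3, at 5004 ± 161 CPM.

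**Figure D1:**
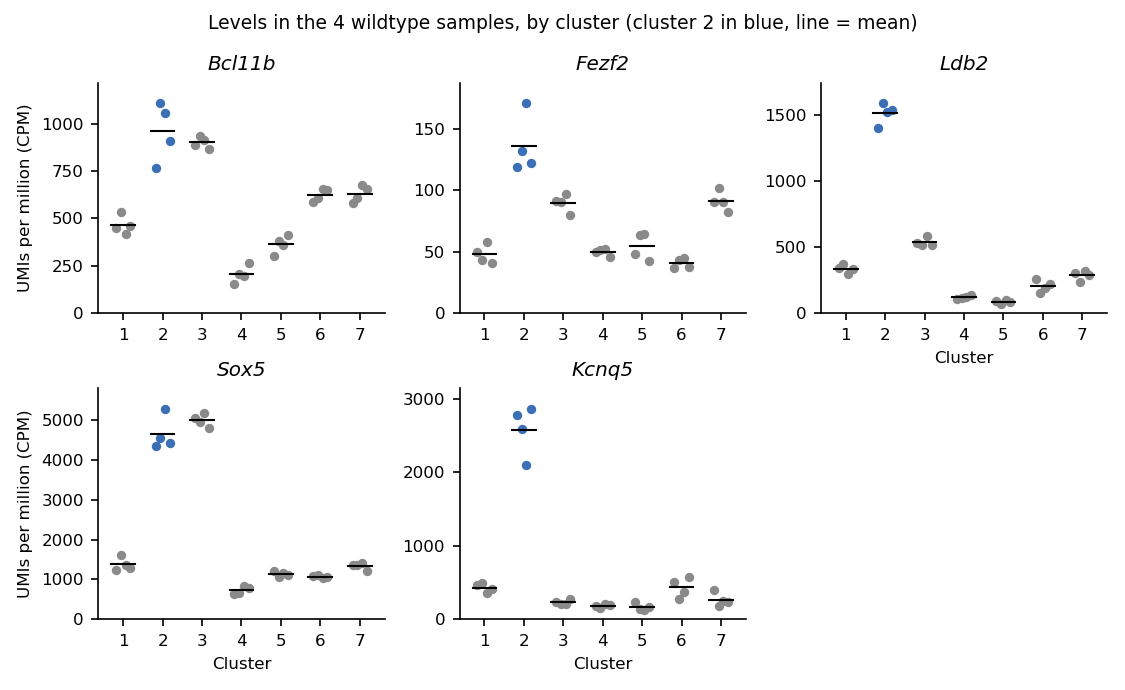
Levels in CPM (vertical axes, linear) of the 5 given marker genes in the 7 clusters (horizontal axes), 1 point for each of the 4 wildtype samples and a line at their mean, with cluster 2 in blue. Kcnq5 and Ldb2 stand apart in cluster 2, and Bcl11b and Sox5 are shared with cluster 3.

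Other genes that stood out in wildtype cluster 2 included Ccbe1, a secreted protein of lymphatic development, at 404.6 ± 56.3 CPM and 2.97 times cluster 3. Gucy1a1 and Gucy1b1, the subunits of the nitric oxide receptor guanylate cyclase, stood at 3.33 and 2.34 times their next cluster. Vav3, a guanine nucleotide exchange factor, stood at 2.98 times, Tox at 2.29 times, Nrip1, a nuclear receptor corepressor, at 2.22 times and Pde4b, a cyclic AMP phosphodiesterase, at 2.14 times. Robo1, an axon guidance receptor for Slit proteins, stood at 4628 ± 112 CPM and 1.99 times cluster 7. Trmt9b, Gm49678, Tmtc1, Oma1 and Tcerg1l completed the 15 genes of highest ratio. Of 6385 genes ranked at 20 CPM or more in cluster 2, 202 had a ratio over 1.

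Cluster 2 shared different genes with each of its neighbours. Hs3st2, a heparan sulfate sulfotransferase, was 79.4 times higher than in cluster 1 but 0.79 times its level in cluster 3, and Adamtsl1, Npr3, Sgcz and Iqschfp were 32.3, 32.2, 28 and 26.9 times higher than in cluster 1. Gm2164, Trmt9b, Kcnq5, Itpr1 (an intracellular calcium release channel) and Gm44593 were 24.3, 14.7, 11.3, 10.8 and 10.3 times higher than in cluster 3. The corticothalamic genes Tle4, Foxp2 and Hs3st4 were at 0.18, 0.33 and 0.15 times their level in cluster 3. Of a longer list of 22 subcerebral genes in the files, 5 peaked in cluster 2, and of 11 corticothalamic genes only Fezf2 did.

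UMIs of upper-layer genes were also counted in wildtype cluster 2. Of 12 upper-layer and callosal genes, 11 were at 20 CPM or more. So were 4 of 6 red blood cell genes, whose summed level was 299.9 to 626 CPM in wildtype cluster 2 and lay between 267.7 and 676.3 CPM in the other clusters, so this level alone does not show expression. Rorb, a nuclear receptor of layer 4 neurons, had its highest level there at 713.9 ± 164 CPM. Cux1 and Cux2, homeobox factors of upper-layer neurons, stood at 128.9 ± 41.1 and 123.9 ± 28.1 CPM, below cluster 1 (666.7 ± 62.8 and 762.7 ± 94.5 CPM) and above cluster 3 (54.2 ± 6.48 and 62.1 ± 14.5 CPM). Both factors thus stood between their levels in the neighbouring clusters.

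The comparison of knockout against wildtype in cluster 2, over summed UMIs, asks what loss of Pantr2 goes with in these neurons. Of 11538 genes tested, 1051 had an adjusted p under 0.05 in edgeR's quasi-likelihood test with Benjamini-Hochberg adjustment, or 9.11%. Of these, 452 (3.92%) were higher and 599 (5.19%) lower in knockout. In 958 genes (8.3%) the call came with groups that did not overlap. The 8 largest changes in each direction and up to 3 genes per pathway list were picked among these. Their lack of overlap below was fixed by that choice and adds no support. The median log2 fold change of all genes tested was 0.0044. Without the samples numbered 1, whose doublet scores stood apart, 644 genes were called, and of the genes named below Bcl6, Pex5l, Nxph3, Ryr2, Rgs6 and Lhx6 then lost their call. A sum over nuclei cannot tell fewer nuclei with a transcript from fewer transcripts per nucleus.

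**Figure D2:**
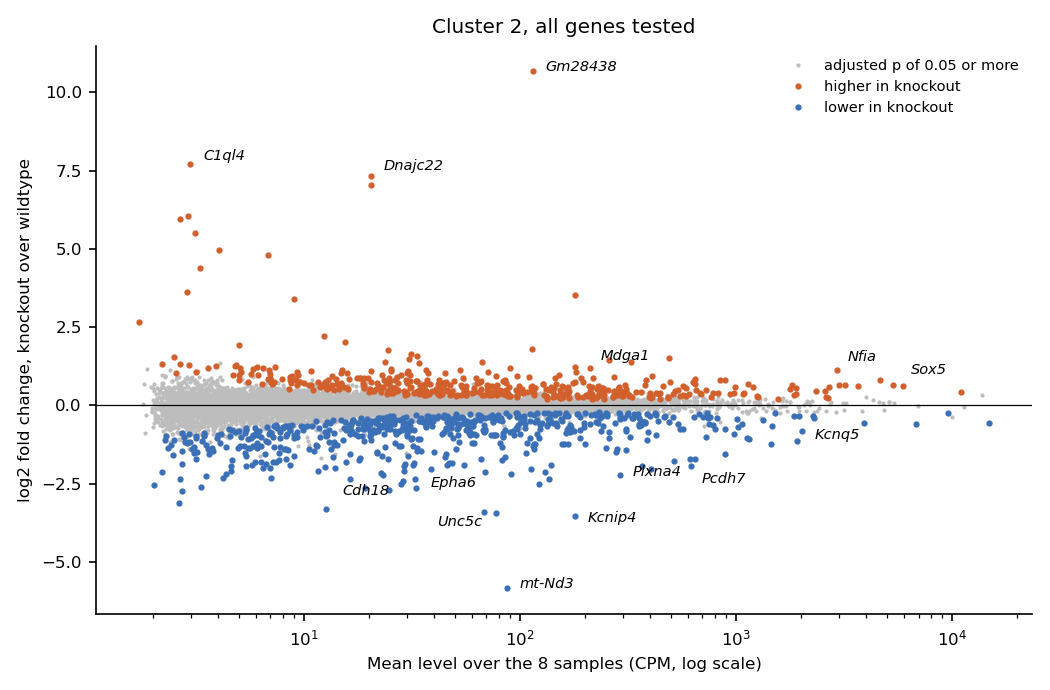
Tested genes of cluster 2, apart from a few not reported here, by mean level over the 8 samples (horizontal axis, CPM, log scale) and log2 fold change of knockout over wildtype (vertical axis). Called genes are coloured, orange where higher and blue where lower in knockout, and the labelled genes are described in the text.

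The given markers moved in different directions. Bcl11b stood at 769.6, 1095, 1080 and 903.7 CPM in wildtype samples 1 to 4 and at 1367, 1492, 1645 and 1215 CPM in the knockout samples. It rose by a log2 fold change of 0.57 ± 0.12 (SE, adjusted p = 0.00642). Sox5 stood at 4369, 4509, 5385 and 4396 CPM in wildtype and at 6990, 7993, 7298 and 6236 CPM in knockout. Every knockout sample lay above every wildtype sample in both genes, and Sox5 rose by 0.61 ± 0.09 (adjusted p = 0.000828).

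Kcnq5, the gene that stood out most in cluster 2, went the other way. It stood at 2790, 2554, 2137 and 2834 CPM in wildtype and at 1471, 1325, 1326 and 1796 CPM in knockout, with no overlap. Its log2 fold change was -0.80 ± 0.11 (adjusted p = 0.000443). Fezf2 averaged 136.5 ± 25.7 and 172.4 ± 14.0 CPM, a log2 fold change of 0.34 ± 0.11 that did not pass (adjusted p = 0.0859), and passed without wildtype replicate 3, its highest wildtype sample (adjusted p = 0.00228). Ldb2 averaged 1512 ± 73.6 and 1431 ± 96.2 CPM (log2 fold change -0.08 ± 0.07, adjusted p = 0.584), with overlapping groups.

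Of 21 subcerebral genes tested, 4 rose and 9 fell, with a median log2 fold change of -0.14. Over all genes tested, 3.92% were higher and 5.19% lower, and neither this list nor those below were tested as sets. The nuclear factor Nfib (0.66 ± 0.10) and the sulfotransferase gene Chst8 (0.60 ± 0.13) rose with Bcl11b and Sox5. Tcerg1l had the largest fall of the list, from 23.1 ± 11.3 to 2.29 ± 1.52 CPM (-3.30 ± 0.49, adjusted p = 0.000758). Npr3 (-1.81 ± 0.35), S100a10 (-1.68 ± 0.24), Diaph3 (-1.38 ± 0.29) and Crim1, a transmembrane protein of corticospinal neurons (-0.81 ± 0.16), fell too. By mean level S100a10 was lower in knockout in all 7 clusters, with 23.6 and 7.8 CPM in cluster 1. Npr3 was also lower in cluster 3, at 40.59 and 13.005 CPM, but not in cluster 6. For neither gene was the change in cluster 2 called different from that in cluster 1 or cluster 3. For Diaph3 and Crim1 it was called more negative than in both. Bcl6, Etv1 and Pex5l were called lower, but the calls were lost when single samples were left out. Crym and Pcp4, other corticospinal genes, had log2 fold changes of 0.04 and 0.28 and did not pass. The summed level of the 22 genes in the files went against the median, at 13633 to 15319 CPM in wildtype and 16914 to 20134 CPM in knockout without overlap. That of the 5 given markers was 9425 to 10117 CPM in wildtype and 10808 to 12328 CPM in knockout. Sox5 had the highest level in both lists and weighs most in both sums. In all 7 clusters the sum of the 22 genes was higher in knockout without overlap, with means of 7364 and 11101 CPM in cluster 1. That of the given markers was so in every cluster but cluster 4.

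Of 11 corticothalamic genes, 6 rose, with a median over the list of 0.64. Hs3st4 stood at 514, 684.7, 669.4 and 557.7 CPM in wildtype and at 1056, 1080, 1175 and 986.1 CPM in knockout (0.83 ± 0.09, adjusted p = 0.000138). Tbr1, the T-box factor of corticothalamic neurons, stood at 50.6, 56.9, 60.1 and 52.6 CPM and at 88.2, 99.6, 85.7 and 68.9 CPM (0.64 ± 0.11, adjusted p = 0.00173). The knockout samples were all above the wildtype samples in both genes. Zfpm2, a zinc finger cofactor (0.82 ± 0.11), Syt6 (1.1 ± 0.17), Nxph3 (0.91 ± 0.21) and Nfia (1.14 ± 0.13) were the others that rose. Tle4, Foxp2 and Ntsr1 had log2 fold changes of 0.28, -0.07 and -0.64 and did not pass, and the call of Nxph3 was lost without wildtype replicate 1. The summed level of the 11 genes was 3725 to 4936 CPM in wildtype and 6792 to 8281 CPM in knockout. It was also higher in knockout without overlap in clusters 1, 4, 5 and 7, and overlapped in clusters 3 and 6.

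Of 12 upper-layer and callosal genes, 8 fell and 1 rose, with a median of -0.85. Cux1 stood at 184.6, 103.7, 93.4 and 134.3 CPM in wildtype samples 1 to 4 and at 54.5, 33.6, 27.7 and 51.2 CPM in knockout samples 1 to 4. Each knockout sample lay below each wildtype sample, and the change was -1.65 ± 0.23 (adjusted p = 0.000489). Cux2 fell by 0.96 ± 0.16 (adjusted p = 0.00158), also without overlap. Mdga1, a cell surface anchored protein of migrating upper-layer neurons, went against the list. It stood at 108 to 139.5 CPM in wildtype and 224.4 to 332.1 CPM in knockout (1.19 ± 0.12, adjusted p = 6.32e-05). The summed level of the 12 genes was 1789 to 2520 CPM in wildtype and 1288 to 1815 CPM in knockout, and the groups overlapped. This sum was lower in knockout without overlap in clusters 1, 4 and 5, with means of 6256 and 4785 CPM in cluster 1. It overlapped in clusters 3, 6 and 7.

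**Figure D3:**
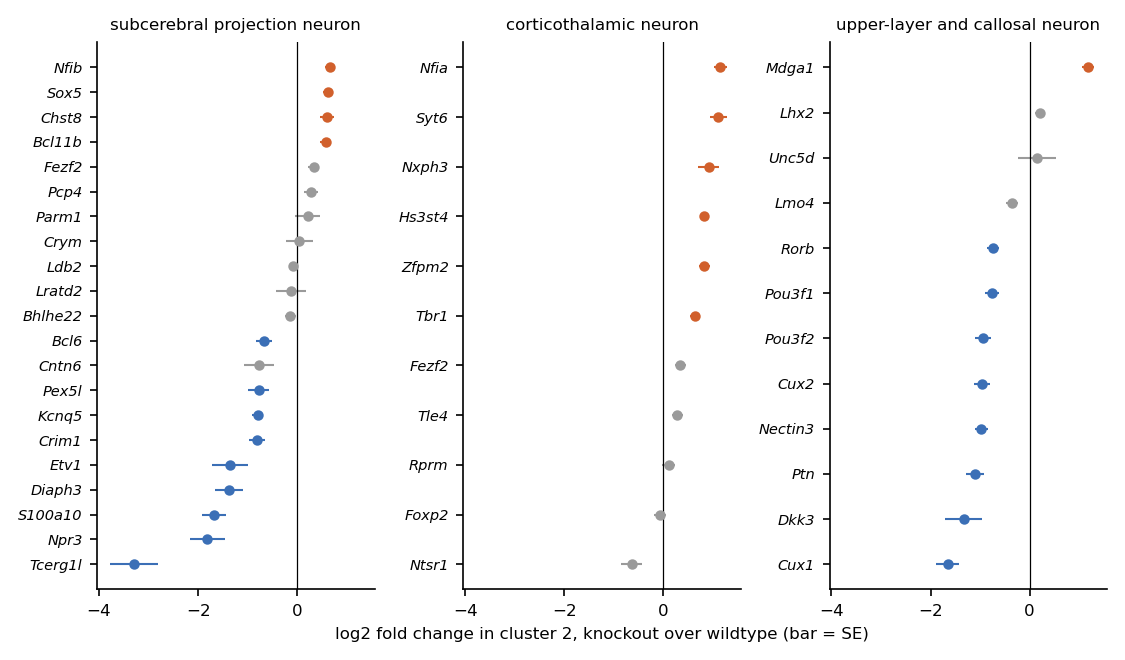
Log2 fold change of knockout over wildtype in cluster 2 (horizontal axes, bars are SE) for the tested members of 3 marker lists, with genes that rose in orange, genes that fell in blue and genes that did not pass in grey. Corticothalamic genes lie mostly to the right, upper-layer genes mostly to the left, and subcerebral genes on both sides.

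Of 25 genes in a list of deep-layer fate regulators, which also holds upper-layer factors, 7 rose and 5 fell. Those that fell were Cux1, Cux2, Pou3f1 and Pou3f2, all of them also in the upper-layer list, and Etv1, whose call was lost when single samples were left out. Nfia, a nuclear factor I protein, stood at 1477, 2158, 2061 and 1636 CPM in wildtype and at 3961, 4673, 4352 and 3207 CPM in knockout, with no overlap (1.14 ± 0.13, adjusted p = 0.00015). Bcl11a, the paralogue of Bcl11b, rose as well (0.39 ± 0.07, adjusted p = 0.00306). Nfix, another nuclear factor I gene, averaged 426.6 ± 60.4 and 532.5 ± 63.6 CPM and did not pass (0.32 ± 0.10, adjusted p = 0.0799), but passed without wildtype replicate 3 (adjusted p = 0.0117) and without knockout replicate 1 (adjusted p = 0.0496). Lef1, a transcription factor of Wnt signalling, rose from 9.02 to 13.9 CPM in wildtype to between 33.0 and 41.6 CPM in knockout (1.76 ± 0.14, adjusted p = 9.38e-06). In the deposited gene table Nfia overlaps the gene E130114P18Rik, which was also called, and their UMIs may not be separable.

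Axon guidance genes changed in both directions. Among 17 netrin and Slit receptors and ligands, 6 rose and 4 fell, with a median of 0.23. For these and the families below, the shares over all genes tested were 3.92% higher and 5.19% lower. Unc5c, a netrin receptor that mediates repulsion, stood at 191.1, 74.4, 107.4 and 195 CPM in wildtype and at 11.3, 16.1, 8.37 and 15.8 CPM in knockout. It fell by 3.45 ± 0.31 on the log2 scale (adjusted p = 2.2e-05). Dcc, the netrin receptor that mediates attraction, stood at 3009 to 3907 CPM in wildtype and 4501 to 6597 CPM in knockout and rose by 0.82 ± 0.12 (adjusted p = 0.000544). The groups did not overlap in either receptor.

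Robo2, a Slit receptor, stood at 1884, 1402, 1364 and 1569 CPM and at 845.2, 668.8, 600.4 and 849.3 CPM, and fell by 1.07 ± 0.12 (adjusted p = 0.000158). Robo1 fell by 0.55 ± 0.07, and Ntng1, a membrane-anchored netrin, by 1.45 ± 0.23. The ligand gene Slit1 (0.45 ± 0.10) and Draxin, a secreted guidance protein that binds netrin receptors (0.61 ± 0.09), rose.

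Of 26 semaphorin, plexin and neuropilin genes, 2 rose and 4 fell, and the median was 0.02. Plxna4, a semaphorin receptor subunit, stood at 1287, 916.4, 646.6 and 1123 CPM in wildtype and at 386.3, 336.8, 163.4 and 324.1 CPM in knockout, and fell by 1.72 ± 0.24 (adjusted p = 0.000482). Sema3a fell by 0.72 ± 0.13 and Sema4d rose by 0.60 ± 0.12. Of 15 ephrin and Eph receptor genes, 2 rose and 3 fell. Epha6 stood at 123.2, 119.1, 115.1 and 91.5 CPM and at 32.5, 14.4, 22.2 and 35.2 CPM (-2.14 ± 0.20, adjusted p = 3.08e-05), Epha7 fell by 0.83 ± 0.14, and the ligand gene Efna5 fell by 0.82 ± 0.17. Epha6 also fell in cluster 1 (-1.62 ± 0.28) and Efna5 in cluster 3 (-0.76 ± 0.12), and neither of these changes was called different from that in cluster 2. The change of Epha6 was called more negative than in cluster 3, and that of Epha7 than in clusters 1 and 3.

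Adhesion genes also changed in both directions. Of 26 cadherin and protocadherin genes, 7 fell and 5 rose. Cdh18 stood at 64.0, 41.7, 34.9 and 50.8 CPM in wildtype and at 8.58, 7.59, 5.95 and 11.6 CPM in knockout (-2.52 ± 0.22, adjusted p = 1.71e-05). Pcdh7, a protocadherin, stood at 1280, 729.7, 890.2 and 1035 CPM and at 236.8, 227.3, 184.8 and 377 CPM (-1.94 ± 0.20, adjusted p = 7.53e-05). Neither gene had overlapping groups. Cdh10 fell by 2.50 ± 0.33, Cdh12 by 2.34 ± 0.28 and Cdh8 by 1.5 ± 0.17, while Cdh13 (0.62 ± 0.10) and Pcdh9 (0.65 ± 0.08) rose.

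Of 38 contactins, teneurins and other synaptic adhesion genes, 14 fell and 5 rose, with a median of -0.34. Lsamp, a cell adhesion protein of the limbic system, fell from 2045 ± 469 to 873.1 ± 239 CPM (-1.23 ± 0.19). Cntnap2 and Cntnap5a, contactin-associated proteins, fell by 1.24 ± 0.16 and 1.36 ± 0.20. Cntn2, a contactin of growing axons, rose (0.78 ± 0.10), and so did the teneurin Tenm4 (0.64 ± 0.09).

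Of the ion channel and receptor genes tested, Kcnip4 had the largest fall. Kcnip4, a potassium channel interacting protein, stood at 436.7, 261.5, 128.1 and 495.4 CPM in wildtype and at 34.3, 35.7, 14.1 and 31.5 CPM in knockout. It fell by 3.52 ± 0.38 on the log2 scale (adjusted p = 9.48e-05), with no overlap and with a wide range among wildtype samples. It overlaps 5730480H06Rik in the gene table. Of 36 potassium and HCN channel genes, 7 rose and 6 fell, against 3.92% and 5.19% of all genes tested. Among them were the SK channel Kcnn3 (0.88 ± 0.12) upward and the background potassium channel Kcnk2 (-1.08 ± 0.13) downward.

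Of 30 glutamate and GABA receptor genes, 13 fell and 3 rose, with a median of -0.34. The metabotropic receptor Grm3 fell from 46.1 ± 12.9 to 12.8 ± 4.68 CPM (-1.87 ± 0.23). The GABA-A receptor subunit Gabrg3 fell by 1.84 ± 0.21, and Grm8, another metabotropic receptor, fell from 16.4 ± 4.5 to 6.7 ± 1.98 CPM (-1.30 ± 0.23, adjusted p = 0.00274). Gria2, an AMPA receptor subunit, fell by 0.43 ± 0.06, while Gria1 (0.54 ± 0.10) and Gria3 (0.92 ± 0.10) rose. Of 25 calcium and sodium channel genes, 6 fell and 3 rose. The sodium channel subunits Scn1a (-1.31 ± 0.24), Scn2a (-1.05 ± 0.13) and Scn3a (-0.58 ± 0.12) fell together. The rise of Ryr2 (0.80 ± 0.22) was lost without any 1 of 5 samples, wildtype replicates 1, 2 and 3 and knockout replicates 2 and 3, with adjusted p up to 0.130.

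Of 26 cytoskeleton and maturation genes, 6 fell and 3 rose. Rnd2, a small GTPase of neuronal migration, stood at 26.1 to 36.9 CPM in wildtype and 54.1 to 67.7 CPM in knockout (1.03 ± 0.11, adjusted p = 0.000115), and it overlaps the called gene Vat1. It also rose in clusters 1 and 3 (0.93 ± 0.10 and 1.01 ± 0.11), with no difference from cluster 2 called. Syt4, a synaptotagmin, fell by 1.03 ± 0.14 and Nrgn by 1.92 ± 0.31. The 7 immediate early and heat shock genes tested had a median of 0.12, and their summed levels overlapped. Among 11 genes of the targeted locus and of the study, Pantr1, a long noncoding RNA gene, fell from 209.4 ± 34.1 to 121.1 ± 34.4 CPM (-0.80 ± 0.17, adjusted p = 0.00907) and Gm20646 rose (0.88 ± 0.16). Pantr1 also fell in cluster 1 (-0.92 ± 0.10) but not in cluster 3 (0.01 ± 0.17), and only the difference from cluster 3 was called. Gm20646 also rose in clusters 1 and 3 (1.25 ± 0.10 and 1.35 ± 0.17), with no difference from cluster 2 called. Rgs6, a regulator of G protein signalling, rose by 0.36 ± 0.10, a call lost without any 1 of wildtype replicates 1, 2 and 4 and knockout replicates 2 and 3, with adjusted p up to 0.107.

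The 8 largest increases were mostly genes with almost no UMIs in wildtype. C1ql4, a complement C1q-like synaptic protein, had 0 UMIs in wildtype and 103 in knockout cluster 2, at least 35.2-fold higher against a floor of 3 UMIs over the group. Gm42743 had 1 against 96 UMIs, a ratio of 98.5 with a 95% exact interval of 17.3 to 3932, and Gm9347 had 1 against 90 UMIs, a ratio of 92.4 (16.2 to 3689). Gm50166 had 2 against 112 UMIs, a ratio of 57.5 (15.55 to 480.5). Gm28438 had 2 against 4040 UMIs, a ratio of 2073 (573.6 to 17126). These intervals cover counting error only.

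Dnajc22 averaged 0.228 and 40.7 CPM, Tpm3-rs7 0.271 and 40.8 CPM, and 4930480G23Rik 0.213 and 7.87 CPM. These 8 genes had 0 to 5 UMIs in wildtype cluster 2, too few to compare the size of their change with that in clusters 1 and 3. All 8 were also called higher in both of those clusters, so their rise was not particular to cluster 2. Gm28438 rose there by 10.9 and 11.8 and Dnajc22 by 6.71 and 6.31, in that order. Among the decreases mt-Nd3, a mitochondrial gene, fell from 171.3 ± 99.0 to 2.81 ± 1.38 CPM (-5.84 ± 0.52). Kif26b, a kinesin family gene, fell by 3.42 ± 0.38 and Isl1, a LIM homeobox factor of striatal neurons, by 3.11 ± 0.50. B230209E15Rik fell by 2.74 ± 0.35 and Gm17167 by 2.71 ± 0.19. In clusters 1 and 3, mt-Nd3 changed by -6.06 and -6.02 and Gm17167 by -2.80 and -2.60. Isl1 changed by -3.14 in cluster 1. For mt-Nd3, Gm17167 and Isl1 no difference from cluster 2 was called. Kif26b and B230209E15Rik fell more in cluster 2 than in cluster 3, and both differences were called. Near-identical copies of these genes were not searched for, and their UMIs could be split between copies, so their values are uncertain.

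Markers of other cell types moved with the genotype at low levels. The summed level of 11 interneuron genes in cluster 2 was 81.5 to 112.2 CPM in wildtype and 37.5 to 70.9 CPM in knockout, and Npy, Dlx2, Dlx5 and Lhx6 were called lower, Dlx5 not without knockout replicate 2 and Lhx6 not without wildtype replicate 1 or knockout replicate 2. Dlx5 stood between 6.91 and 8.78 CPM in all 7 wildtype clusters. Sums of 7 endothelial or mural genes (16.1 to 23.5 against 12.1 to 15.9 CPM) and 5 oligodendrocyte precursor genes (3.2 to 7.04 against 1.31 to 3.1 CPM) were lower without overlap. Sums of 8 subplate genes (163.5 to 193.1 against 232.4 to 305.6 CPM) and 9 Cajal-Retzius genes (29.4 to 38.5 against 39.9 to 66.6 CPM) were higher. Each of these 5 sums moved the same way without overlap in some other clusters as well, clusters 1, 3 and 4 for the interneuron genes. Of these 5 lists no gene was at 0 in every sample. Sums for progenitors, striatal-type, hippocampal and thalamic neurons, microglia and red blood cells overlapped, although the embryonic globin Hbb-y rose (2.20 ± 0.37) and Tac1 was at 0 throughout. Their part in the results was not tested.

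The genotype difference in cluster 2 was next set against that in its neighbours, cluster 3, where Tle4 and Sox5 were highest, and cluster 1, where Cux1 and Cux2 were highest. The 3 clusters come from the same 8 samples, so each difference was tested with the sample as a term. It differed from that in cluster 3 for 672 of 12178 genes (5.52%), 316 higher (2.59%) and 356 lower (2.92%). It differed from that in cluster 1 for 422 of 12068 genes (3.5%), 149 higher (1.23%) and 273 lower (2.26%). With DESeq2 these counts were 346 and 209.

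Kcnq5 went in opposite directions. Against the fall of 0.80 in cluster 2 stood rises of 0.73 ± 0.09 in cluster 1 (426.9 to 690.7 CPM) and 0.70 ± 0.10 in cluster 3 (228.3 to 362.6 CPM). The differences were -1.54 ± 0.08 (adjusted p = 9.29e-11) against cluster 1 and -1.49 ± 0.09 (adjusted p = 8.63e-10) against cluster 3. The wildtype ratio of cluster 2 to its next cluster, 5.99, was 2.14 in knockout. Kcnq5 had the highest ratio in wildtype of the genes ranked, so a lower ratio in other samples is partly fixed by that choice.

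Kcnip4 averaged 834.4 and 932.3 CPM in cluster 3 and 114.7 and 79.7 CPM in cluster 1, where its changes did not pass (0.19 ± 0.16 and -0.45 ± 0.16). The change in cluster 2 lay 3.60 ± 0.28 below that in cluster 3 (adjusted p = 1.41e-08) and 3.00 ± 0.26 below that in cluster 1 (adjusted p = 2.06e-07). Unc5c averaged 326.7 and 310.7 CPM in cluster 3 and fell in cluster 1 (-1.52 ± 0.21), with differences of -3.34 ± 0.27 and -1.87 ± 0.26, both called. Kif26b differed by -3.42 ± 0.30 from cluster 3 and -2.66 ± 0.28 from cluster 1. Pcdh7 rose in cluster 1 by 0.28 and fell in cluster 3 by 0.34, and its differences from both were called (-2.23 and -1.60).

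**Figure D4:**
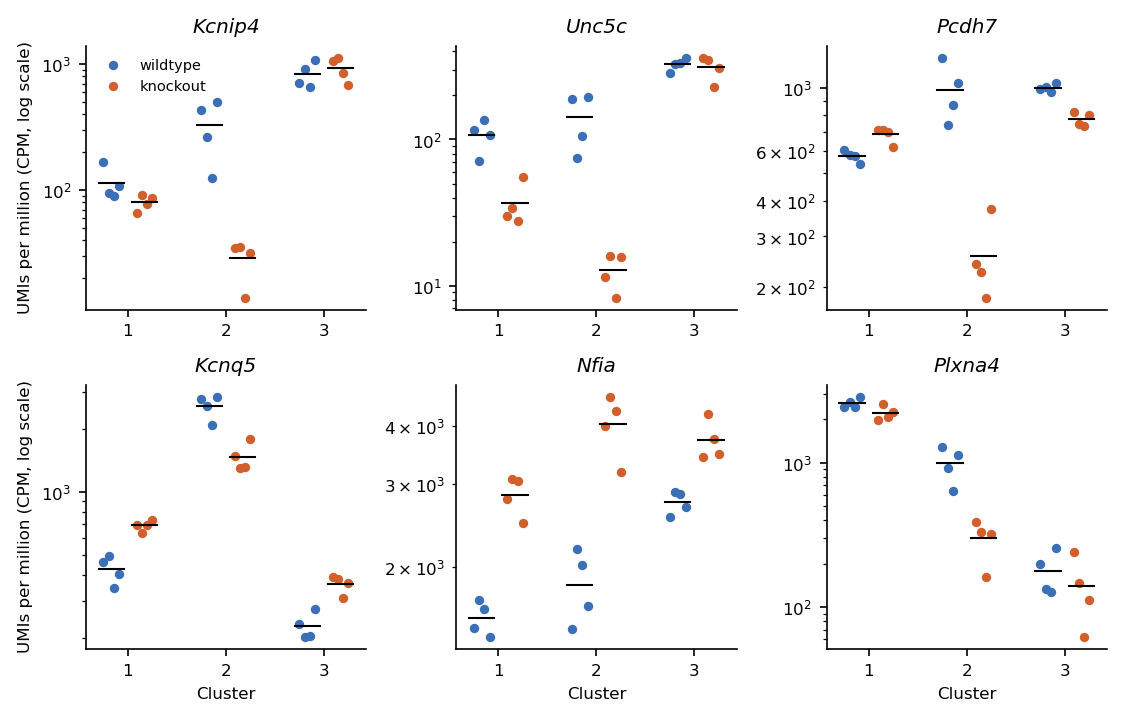
Levels in CPM (vertical axes, log scale) of 6 genes in clusters 1, 2 and 3 (horizontal axes), 1 point per sample in wildtype (blue) and knockout (orange), with lines at the means. Kcnip4, Unc5c and Pcdh7 are far lower in knockout in cluster 2, Kcnq5 falls in cluster 2 and rises in clusters 1 and 3, Plxna4 is lower in knockout in cluster 2, and Nfia is higher in knockout in all 3.

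Other genes differed from 1 or both neighbours, several of them with a more positive change in cluster 2. Rerg, a Ras-like growth inhibitor, rose in cluster 2 (1.24 ± 0.26) and differed from cluster 3 by 2.69 ± 0.44. Trpc7, a cation channel of the TRP family, differed from clusters 3 and 1 by 2.52 ± 0.42 and 1.79 ± 0.45, Pde7b from cluster 3 by 2.15 ± 0.18 and Fxyd7 and Prrt1 from cluster 1 by 1.72 ± 0.40 and 1.68 ± 0.42, while these 4 did not pass in cluster 2 itself (adjusted p = 0.0777, 0.115, 0.083 and 0.150 in that order). The Trpc7 difference from cluster 1 was lost without any 1 of wildtype replicate 4 and knockout replicates 1, 2 and 4, with adjusted p up to 0.131, and that of Fxyd7 without knockout replicate 2 (adjusted p = 0.0994). That of Prrt1, a proline-rich transmembrane protein, was lost without any 1 of wildtype replicates 1 and 4 and knockout replicates 3 and 4, with adjusted p up to 0.0879. Il1rapl2, a synaptic adhesion gene, fell in cluster 2 (-2.65 ± 0.48) with overlapping groups and differed from cluster 1 by -2.68 ± 0.38. Rnf128 differed from cluster 1 by -2.82 ± 0.55 and was too sparse to be tested in cluster 2 alone.

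The fate markers also differed between clusters in size. Cux1 fell in cluster 1 as well (-0.81 ± 0.10), and its fall in cluster 2 was larger (difference -0.85 ± 0.21, adjusted p = 0.021). Cux2 also fell in cluster 1 (-0.67 ± 0.11), with no difference from cluster 2 called. Sox5 rose more in cluster 1 (1.14 ± 0.11) than in cluster 2 (difference -0.52 ± 0.08, adjusted p = 0.000346) and less in cluster 3 (difference 0.41 ± 0.05, adjusted p = 6.37e-06). Bcl11b rose in cluster 1 too (0.74 ± 0.11), a change that did not pass a test against that in cluster 2 (adjusted p = 0.467). Nfia rose in all 3 clusters, by 0.91 ± 0.08 in cluster 1 and 0.47 ± 0.08 in cluster 3, and its rise in cluster 2 was larger than in cluster 3 by 0.69 ± 0.07. Of the 11 corticothalamic genes, 7 had a more positive change in cluster 2 than in cluster 3. Against cluster 1, 2 were more positive (Hs3st4 and Tbr1) and 2 more negative (Fezf2 and Foxp2). Of the 12 upper-layer genes, 7 had a more negative and 1, Mdga1, a more positive change than in cluster 3. Against cluster 1, 3 were more negative (Cux1, Nectin3 and Rorb) and 1, Mdga1 again, more positive.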

How the data were processed

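UMI counts per gene and nucleus, whole numbers without normalisation, and tables of nuclei with a cluster number and doublet scores were used as deposited by the authors. The submitters' processing notes name kallisto, bustools and mm10, with no versions. The gene table names no build, and of 14162 gene identifiers shared with GENCODE M21 only 352 have the same start, so no positions are given. All deposited nuclei were kept, and no doublet caller was run since the highest deposited hybrid doublet score was 0.499954. Counts of Pou3f3, like those of Pantr2, were not analysed here. Some other genes are not reported here and were left out of lists, sums and named genes, though not of the fits. The members and gene lists were chosen with earlier results of these data known.

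UMIs were summed per sample and cluster. Genotypes were compared with edgeR 4.0.16 in R 4.3.3 (TMM, filterByExpr, quasi-likelihood test, Benjamini-Hochberg adjustment over all genes tested, threshold 0.05). The SE of a log2 fold change was derived as its size divided by the square root of the F statistic of that test. CPM in comparisons of genotypes within cluster 2 carry TMM factors, and those across clusters or summed over a list do not. Differences between clusters were tested as an interaction with sample and cluster as terms. The fits were tested on simulated counts with 200 genes changed by 1 on the log2 scale. For cluster 2 and its differences from clusters 3 and 1, 89.5%, 75.5% and 77.5% of these were recovered. False calls made up 8.2%, 5.6% and 6.1% of the calls, somewhat above the threshold of 0.05. Tables were made with Python 3.11.15, and intervals are exact (scipy 1.17.1). Alternatives included DESeq2 1.42.0.

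Named genes were the 5 given markers, the 8 largest changes in each direction among calls whose groups did not overlap and that averaged 10 UMIs or more, up to 3 such genes per pathway list, the 3 largest differences between clusters in each direction, the 15 genes of highest ratio over the other clusters, 5 each over clusters 1 and 3, and Pantr1, Rgs6 and Nfix. Other list members named were chosen after their values were seen.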

Additional observations from a re-analysis of the deposited data

Results flagged for a closer look

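Among 120 groups of 4 samples checked for the 60 named genes, 8 held a sample far from the other 3, and chance alone gives about 1 in 20. The Sox5 level of wildtype sample 3 was 5385 CPM against 4369 to 4509 CPM in the others, and the Syt4 level of wildtype sample 1 was 172 CPM against 138.9 to 144.4 CPM. Rgs6 stood at 1477 CPM in knockout sample 2 against 1098 to 1149 CPM in the others, and its call is lost without that sample. In knockout sample 3, Cdh10 stood at 16.5 CPM against 41.7 to 46.6 CPM and Cntnap5a at 12.99 CPM against 20.4 to 21.3 CPM. Rnf128 stood at 6.67 CPM in wildtype sample 1 against 1.86 to 2.53 CPM. Gm42743 and Gm9347 each stood at 0.233 CPM in wildtype sample 3, which is 1 UMI, and at 0 in the others.

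The genotype difference in cluster 2 departed most from that in cluster 3 for Kcnip4 (-3.60), Kif26b (-3.42) and Unc5c (-3.34) in the negative direction and for Rerg (2.69), Trpc7 (2.52) and Pde7b (2.15) in the positive direction, on the log2 scale. Pde7b fell in cluster 3 from 69.7 to 26.2 CPM (-1.38 ± 0.28) and Trpc7 from 16 to 6.15 CPM (-1.34 ± 0.20). It departed most from that in cluster 1 for Kcnip4 (-3.003), Rnf128 (-2.82) and Il1rapl2 (-2.68) and for Trpc7 (1.79), Fxyd7 (1.72) and Prrt1 (1.68). Fxyd7 fell in cluster 1 from 5.4 to 0.952 CPM (-2.52 ± 0.31). These 12 differences each passed the test of the difference itself.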

How the results depend on the processing

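For knockout against wildtype in cluster 2, the 1051 calls became 956 with DESeq2, 1054 with DESeq2's size factors, 1055 with no filter on low counts, 1087 with Xist as a covariate and 961 over nuclei with a hybrid doublet score of 0.25 or less. The Xist covariate separated wildtype sample 4 and knockout samples 1 and 4, with 0 Xist UMIs over all nuclei, from the other samples, with 77 to 128. Leaving out 1 sample gave 738 (without knockout replicate 3) to 1074. A setting added after the data were seen gave 644 calls without the samples numbered 1, where fewer samples entered. For the knockout effect in cluster 2 minus that in cluster 3, the 672 calls became 346 with DESeq2 and 495 (without knockout replicate 2) to 676 on leaving out 1 sample. For the knockout effect in cluster 2 minus that in cluster 1, the 422 calls became 209 with DESeq2 and 290 (without wildtype replicate 4) to 452. The cause of the lower DESeq2 counts was not tested. For the same 60 named genes as above, 1004 single-gene values over all settings kept their direction and side of the threshold, 21 lost a call and 8 gained one. Calls lost by other list members, such as Bcl6, Etv1, Pex5l, Nxph3, Dlx5 and Lhx6, are not in this tally. The labels do not say whether replicate numbers pair the samples, and the correlations did not settle it. Same-numbered deviations correlated at 0.216, 0.0268, 0.150 and 0.0341 for numbers 1 to 4. Knockout replicates 1, 2 and 3 each correlated best with their own number, and knockout replicate 4 with wildtype replicate 3 (0.0775). The other differently numbered pairs lay between -0.187 and 0.0511. With the replicate block the counts were 1198, 738 and 528, and of the named genes Fezf2 and Nfix passed in cluster 2 (adjusted p = 0.0335 and 0.00481). Depth limits genes of low level, and 2427 genes had an unadjusted p under 0.05 in cluster 2.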
